A study of Mus musculus with 4 samples.

Results

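The loci of Myc, Lmnb2, Mcm4, Aprt and Cad, 5 genes beside which origins of DNA replication were mapped in earlier work on mammalian cells, were examined in the replication profile of mouse embryonic stem cells. The rule uses no measured value, although the genes were picked with earlier results of these data known, and each locus was taken as all windows with a midpoint within 500 kb of the gene interval in GRCm38. This gave 203 windows, 40 or 41 per locus, of the 109033 in the profile, and each had a value in every library. Between the last window inside this limit and the first outside it, polarity (defined below) changed by at most 8.49 percentage points, on the right of Aprt. The profile was measured by TrAEL-seq, a method that captures free DNA 3′ ends and so records the strand on which they lie at replication forks. There were 2 wild-type (WT) and 2 Snf2h knockout (KO) libraries of the 129S6/SvEvTac embryonic stem cell line, from duplicate cultures on gelatin in medium with serum and LIF. Snf2h is the ATPase of the ISWI chromatin remodelling complexes. The labels do not say how the knockout was made or whether each genotype is a single clone, and loss of Snf2h and the cell type were not checked here because no expression was measured.

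A mammalian origin is licensed in G1, when the origin recognition complex, Cdc6 and Cdt1 load the Mcm2 to Mcm7 helicase, and 2 forks then leave it in opposite directions in S phase. Replication forks on either side of an origin therefore run apart, and the strand imbalance of 3′ ends shifts across it, with or without a change of sign. Where forks from neighbouring origins meet, the imbalance changes back. The deposited value, called polarity here, is this imbalance in percentage points (points) between -50 and 50, in windows of 100 kb placed every 25 kb. The strand counted as positive is not given in the sources used here, so a rise was recorded as a rise along the chromosome, towards higher coordinates, whatever the strand of the gene.

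At Myc, which encodes a transcription factor of cell growth, an origin zone was mapped upstream of the promoter in human cells. At Lmnb2, which encodes lamin B2 of the nuclear envelope, the human origin lies between the end of the gene and the promoter of its neighbour Timm13, a mitochondrial import chaperone. At Mcm4, a subunit of the replicative helicase, it lies at the start region shared with Prkdc, the catalytic subunit of DNA-dependent protein kinase. At Aprt, an enzyme of purine salvage, and at Cad, the enzyme of the first steps of pyrimidine synthesis, origins were mapped in rodent cells. The mouse genes lie at chr15:61985341-61990361 (Myc), chr10:80901363-80918245 (Lmnb2), chr16:15623897-15637400 (Mcm4), chr8:122574637-122576907 (Aprt) and chr5:31054620-31078479 (Cad). Each interval is far shorter than the windows, so the profile places a transition near a gene but not at a part of it.

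The annotated starts are shown for the members that have an entry in the RefSeq promoter table (GRCm38.p6), since earlier work placed several of these origins at CpG-rich gene starts. Entries for Lmnb2, Aprt and Cad were matched (of 2 for Lmnb2, the outer start is shown), with Timm13 added as the neighbour beside the Lmnb2 origin. Each sequence runs 5′ to 3′ on the strand of the gene, from 250 bases before the start to 50 after it, and capitals mark CG dinucleotides.
Lmnb2, chr10:80918196-80918495, minus strand: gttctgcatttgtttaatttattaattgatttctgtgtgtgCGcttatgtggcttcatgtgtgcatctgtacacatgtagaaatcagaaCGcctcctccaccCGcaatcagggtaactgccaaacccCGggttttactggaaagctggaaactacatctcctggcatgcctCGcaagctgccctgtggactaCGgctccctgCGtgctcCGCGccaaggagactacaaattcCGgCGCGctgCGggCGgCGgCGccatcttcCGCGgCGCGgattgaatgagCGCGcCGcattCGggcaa
Timm13, chr10:80900920-80901219, minus strand: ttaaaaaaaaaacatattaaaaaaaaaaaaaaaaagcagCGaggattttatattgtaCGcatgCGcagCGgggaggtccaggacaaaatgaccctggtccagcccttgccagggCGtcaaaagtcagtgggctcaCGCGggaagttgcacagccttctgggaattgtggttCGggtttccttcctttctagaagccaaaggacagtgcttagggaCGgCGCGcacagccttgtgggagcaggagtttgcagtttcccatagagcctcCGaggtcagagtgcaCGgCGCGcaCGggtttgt
Aprt, chr8:122576858-122577157, minus strand: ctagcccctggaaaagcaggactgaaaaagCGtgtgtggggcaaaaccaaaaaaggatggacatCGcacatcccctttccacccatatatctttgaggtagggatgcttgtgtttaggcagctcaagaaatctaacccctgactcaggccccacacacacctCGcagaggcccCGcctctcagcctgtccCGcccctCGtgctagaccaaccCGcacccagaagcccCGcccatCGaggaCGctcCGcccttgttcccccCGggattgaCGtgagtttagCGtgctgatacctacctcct
Cad, chr5:31054530-31054829, plus strand: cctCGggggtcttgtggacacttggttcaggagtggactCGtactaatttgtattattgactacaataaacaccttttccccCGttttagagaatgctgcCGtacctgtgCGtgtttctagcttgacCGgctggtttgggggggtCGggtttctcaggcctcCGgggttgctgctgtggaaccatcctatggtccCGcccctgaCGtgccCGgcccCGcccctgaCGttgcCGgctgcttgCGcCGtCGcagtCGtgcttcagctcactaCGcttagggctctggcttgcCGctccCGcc
The motif CG, which reads the same on both strands, occurred 24 times at Lmnb2, 16 times at Timm13, 14 times at Aprt and 21 times at Cad, against a median of 7 over 32851 promoters of the same length. Of all those promoters, 80.02% had fewer CG than Lmnb2, 67.0% fewer than Timm13, 63.7% fewer than Aprt and 75.2% fewer than Cad. The inner start of Lmnb2 had 6 CG, and 43.6% of promoters had fewer. Of the 4 starts shown, the outer one of Lmnb2 had the most CG. The start of Cdt1, the left neighbour of Aprt, is not shown and had 32 CG, with fewer in 90.5% of promoters. A relation between CG count and the polarity profile was not tested.

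The rise across a gene was measured as the mean polarity of windows with midpoints 50 to 250 kb beyond its right end, minus the mean at the same distances beyond its left end, 8 windows on either side for each member. It was positive in all 4 libraries at Myc, Mcm4, Aprt and Cad and scattered around 0 at Lmnb2. In limma, with the mean of both genotypes tested against 0 over 19954 autosomal protein-coding genes, 4 of the 5 members had a rise at an adjusted p under 0.05. Of all genes tested, 53.9% passed in that direction and 25.6% in the other. The rise was above 0 in every library for 4 of 5 members, against 55.6% of all genes. The median rise was 16.6 points over the members and 7.0 points over all genes, many of which share windows with their neighbours.

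**Figure D1:**
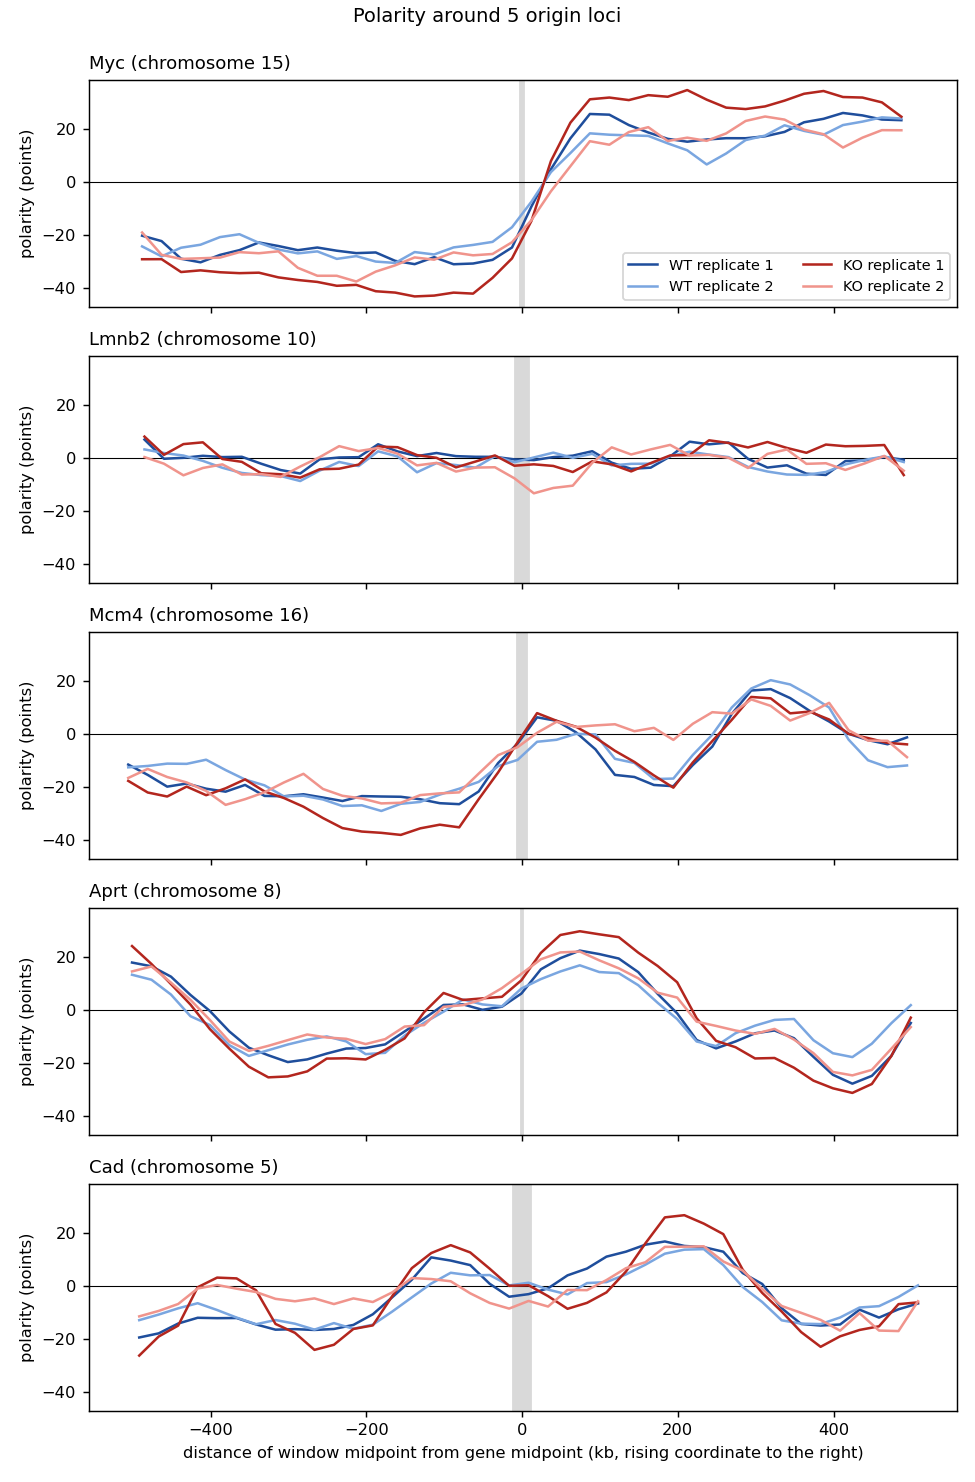
Polarity in points (vertical axis) of each window against the distance of its midpoint from the gene midpoint in kb, with one line per library, WT in blue and KO in red, and the gene interval in grey. Myc has a single steep rise at and just right of the gene, Lmnb2 stays near 0, the profile at Mcm4 rises at the gene and again to its right, Aprt lies inside a rise, and Cad lies between a pair of rises.

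Myc had the steepest transition of the 5 loci. The left flank had -28.9 and -27.6 points for WT replicates 1 and 2, and -41.5 and -31.4 for KO replicates 1 and 2, an order kept in every pair of values. The right flank had 19.3 and 14.3 (WT) against 30.8 and 15.3 points (KO). All 4 libraries thus moved from strongly negative to strongly positive polarity. The rise measured 48.2 and 41.9 points for WT, with a mean of 45.1 ± 4.47 (SD, n = 2). For KO it measured 72.3 and 46.7 points, with a mean of 59.5 ± 18.1 (SD, n = 2). Its mean of 52.3 points (SE 3.69, 95% interval 43.9 to 60.7; limma adjusted p = 2.9e-06) was larger than that of 99.5% of all genes, and 89 genes had a larger one. KO replicate 1 stood above the other libraries, but it also had the widest spread of polarity over the autosomes. Its SD was 19.5 points, compared with 14.6 and 12.8 for the WT libraries and 14.5 for KO replicate 2. In units of each library's own SD the rise across Myc was 3.30 and 3.27 (WT) against 3.72 and 3.21 (KO).

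The steepest part of the transition at Myc lay just right of the gene in every library, by a small margin. Of the steps between adjacent windows that do not overlap, the largest within the locus was at base 62025000 of chromosome 15, 35 kb beyond the gene, in all 4 libraries. It measured 50.4 and 35.5 (WT) against 60.1 and 38.2 points (KO), and in each library it exceeded at least 99.5% of the 94254 such steps on the autosomes. The step at the gene itself was nearly as large, at 45.9 and 33.6 (WT) against 58.6 and 33.2 points (KO), and the difference between these positions was not tested. The nearest annotated gene on that side, the lncRNA gene Pvt1, begins 13 kb beyond this position; it was looked up after the position was known. The window with its midpoint 10 kb right of Myc was still negative, with -9.31 and -7.50 (WT) against -14.8 and -14.5 points (KO). In the next but one, at 60 kb, polarity was 16.4 and 10.9 (WT) against 22.3 and 5.88 points (KO), so it changed sign between them in all 4. Both sides of the transition were long plateaus: every window more than 35 kb left of the gene was negative and every window from 60 kb to the right was positive in all libraries. Myc is the only protein-coding gene within its locus; the nearest others are A1bg, 1064 kb to the left, and Gsdmc, 1786 kb to the right.

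At Mcm4, polarity rose at the gene from a negative left flank to values near 0. The left flank had -24.7 and -25.5 (WT) against -35.7 and -23.6 points (KO), and the right flank -11.6 and -7.88 (WT) against -8.18 and 2.78 points (KO). Only KO replicate 2 was positive on the right. The rise measured 13.1 and 17.6 points for WT, with a mean of 15.4 ± 3.18 (SD, n = 2). For KO it measured 27.5 and 26.4 points, with a mean of 26.9 ± 0.784 (SD, n = 2). Its mean was 21.2 points (SE 2.04, 95% interval 16.5 to 25.8; limma adjusted p = 1.3e-05), larger than that of 77.8% of all genes. A rising segment, a stretch of the profile (running mean of 5 windows) from a local minimum to the next maximum that gains at least 1 SD of the library, covered the gene in all 4 libraries. With positions left of the gene written as negative, it began at -124 kb for WT replicate 1 and at -174 kb for the other libraries. It ended 38 and 63 kb right of the gene (WT) or 38 and 88 kb right of it (KO). In the mean profile this segment held Ube2v2, a ubiquitin-conjugating enzyme variant of DNA damage tolerance, Mcm4 and part of Prkdc, whose interval begins 43 bases beyond Mcm4.

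The right side of Mcm4 separated the libraries. Beyond the first rise, at 188 kb right of the gene, polarity was again negative at -19.8 and -16.9 points (WT) and -20.3 points (KO replicate 1), but KO replicate 2 stood at -2.31 points. A second rise followed from 163 kb right of the gene, over the end of Prkdc and over Mzt2 and Cebpd. It gained 29.1 and 28.6 points (WT) or 22.6 points (KO replicate 1), and no such rise was called for KO replicate 2. The largest step of the locus was this second rise for WT, at 238 kb (36.1 and 34.0 points), and the first rise for KO, at -24 kb (43.1 and 22.5 points). WT also had a large step in the first rise. Nearest the gene midpoint it was 26.7 and 15.9 (WT) against 29.6 and 19.6 points (KO), and the order of the rises was not tested. At 113 kb right of the gene the values were -15.5 and -9.45 (WT) against -6.43 and 3.61 points (KO), KO being higher by 11.1 points (SE 4.85). In the limma fit over all overlapping windows this did not pass (unadjusted p = 0.034, adjusted p = 0.38).

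Aprt lay inside a long rise that came in stages. The left flank had -8.28 and -8.30 (WT) against -9.03 and -6.83 points (KO), and the right flank 6.97 and 3.47 (WT) against 14.9 and 8.61 points (KO). The rise measured 15.3 and 11.8 points for WT, with a mean of 13.5 ± 2.47 (SD, n = 2). For KO it measured 23.9 and 15.4 points, with a mean of 19.7 ± 6.02 (SD, n = 2). Its mean was 16.6 points (SE 2.24, 95% interval 11.5 to 21.7; limma adjusted p = 0.00011), above that of 69.6% of all genes. The rising segment over Aprt was 350 and 300 kb long (WT) or 400 kb long (both KO libraries). It began between -325 and -225 kb and ended 73 to 98 kb right of the gene. At -200 kb polarity was -14.4 and -16.7 (WT) against -18.8 and -12.9 points (KO). At -75 kb it was 2.06 and 3.91 (WT) against 3.73 and 1.76 points (KO), and at -25 kb 1.18 and 1.35 (WT) against 4.92 and 8.20 points (KO). Most of the first stage was over before the gene in all 4 libraries, and WT values then changed little up to the gene.

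The second stage at Aprt ran through the gene. The window with its midpoint in Aprt had 6.16 and 8.05 (WT) against 11.2 and 13.6 points (KO), and the window 73 kb beyond it 22.4 and 16.8 (WT) against 29.7 and 22.0 points (KO). Immediately left of Aprt lies Cdt1, the licensing factor that brings Mcm2 to Mcm7 to origins, at a gap of 2 kb, with a mean rise of its own of 20.7 points over nearly the same windows. On the right lies Galns, a lysosomal sulfatase, with 10.4 points. Further right, polarity was -11.4 and -12.0 (WT) against -3.18 and -4.47 points (KO) at 223 kb right of the gene. With flanks taken out to 500 kb the rise across Aprt was 1.35 points and did not pass (limma adjusted p = 0.44; 57% of all genes rose at this width). With flanks out to 150 kb it was 21.05 points (limma adjusted p = 9.8e-06; 51.3% of all genes rose). The steepest step of the locus was not at the gene but 473 to 498 kb to the right, near the edge of the locus.

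Cad lay in a shallow dip between a pair of rises, with a larger rise farther right. The left flank had -1.96 and -6.16 (WT) against -1.29 and -1.97 points (KO), and the right flank 13.2 and 7.78 (WT) against 13.5 and 8.72 points (KO). The rise measured 15.1 and 13.9 points for WT, with a mean of 14.5 ± 0.841 (SD, n = 2). For KO it measured 14.8 and 10.7 points, with a mean of 12.7 ± 2.91 (SD, n = 2). Its mean was 13.6 points (SE 2.02, 95% interval 9.06 to 18.2; limma adjusted p = 0.0002), above that of 64.2% of all genes. This rise rested on the windows 150 to 250 kb away. With flanks of 50 to 150 kb it was 3.90 and 2.34 (WT) against -8.62 and 2.93 points (KO), a mean of 0.135 points (limma adjusted p = 0.97). With flanks to 500 kb it was 10.5 and 8.31 (WT) against 6.70 and 2.22 points (KO). The mean was then 6.95 points (limma adjusted p = 0.0049, where 57% of all genes rose). The step between the adjacent windows nearest the gene midpoint was 3.17 and -7.33 (WT) against -15.2 and 4.91 points (KO), so no common change was seen at Cad itself.

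The first of the rises at Cad ended left of the gene and the second began near it or to its right. In the mean profile the left one ran from -255 to -80 kb and gained 18.4 points, over Agbl5, Ost4, Emilin1 and Khk among other genes. The right one began 45 kb beyond the gene start, ended 197 kb beyond its end and gained 17.4 points, over Eif2b4, Snx17 and Gtf3c2 among other genes. The left rise was called in both WT libraries and KO replicate 1, and the right one in WT replicate 1 and both KO libraries. At -80 kb, on the left peak or just past it, polarity was 9.54 and 4.94 (WT) against 15.4 and 1.72 points (KO). In the window with its midpoint in Cad it was -3.13 and 1.18 (WT) against 0.218 and -5.70 points (KO). Polarity at 197 kb to the right was 15.1 and 13.7 (WT) against 26.7 and 14.8 points (KO). The peaks stood on either side of the gene in all libraries, although the left one was low in KO replicate 2. The larger rise farther right, over Mrpl33, Slc4a1ap and Rbks among other genes, began 420 and 395 kb (WT) or 420 and 445 kb (KO) beyond the gene start and ran past the edge of the locus. It gained 38.0 and 34.3 (WT) against 50.2 and 41.8 points (KO), more than either rise beside Cad in the same library. The steepest step of the mean profile lay there, 497 kb right of the gene, but only KO replicate 2 had its own steepest step at that place.

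Lmnb2 showed no rise. The flanks lay between -1.96 and 1.42 points on the left and between -0.974 and 0.654 points on the right. The rise measured -0.763 and 1.74 points for WT, with a mean of 0.490 ± 1.77 (SD, n = 2). For KO it measured -0.665 and 0.530 points, with a mean of -0.0675 ± 0.844 (SD, n = 2). Its mean was 0.211 points (95% interval -4.29 to 4.71; limma adjusted p = 0.93), and its sign changed without WT replicate 2, to -0.415, and without KO replicate 2, to -0.0871. No rising segment covered the gene in any library, and the only one in the locus began 357 kb to its right, in WT replicate 1 alone. The whole locus was flat, with an SD of polarity over its windows of 3.16 and 3.05 (WT) against 4.29 and 4.39 points (KO). This was 21.6% to 30.2% of the SD of the same libraries over the autosomes. At Myc this share was 162% to 172%, and at the other members 55.7% to 103%. The locus of Lmnb2 holds 58 protein-coding genes, more than the loci of 97.5% of all genes, against 38 at Cad, 22 at Aprt, 6 at Mcm4, 1 at Myc and a median of 18 over all genes.

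KO replicate 2 departed from the other libraries at Lmnb2 itself. The window with its midpoint 7 kb beyond the gene had -0.877 and 0.122 points (WT), -2.47 points (KO replicate 1) and -13.4 points (KO replicate 2). At 57 kb beyond the gene the values were 0.806 and 0 (WT) against -5.38 and -10.5 points (KO). Here the KO values were lower than either WT value, KO minus WT being -8.35 points (SE 4.54), which did not pass over all overlapping windows (limma adjusted p = 0.47). Timm13, on the left, had a mean rise of 0.243 points and Gadd45b, a stress response gene on the right, of 1.06 points, neither of which passed.

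**Figure D2:**
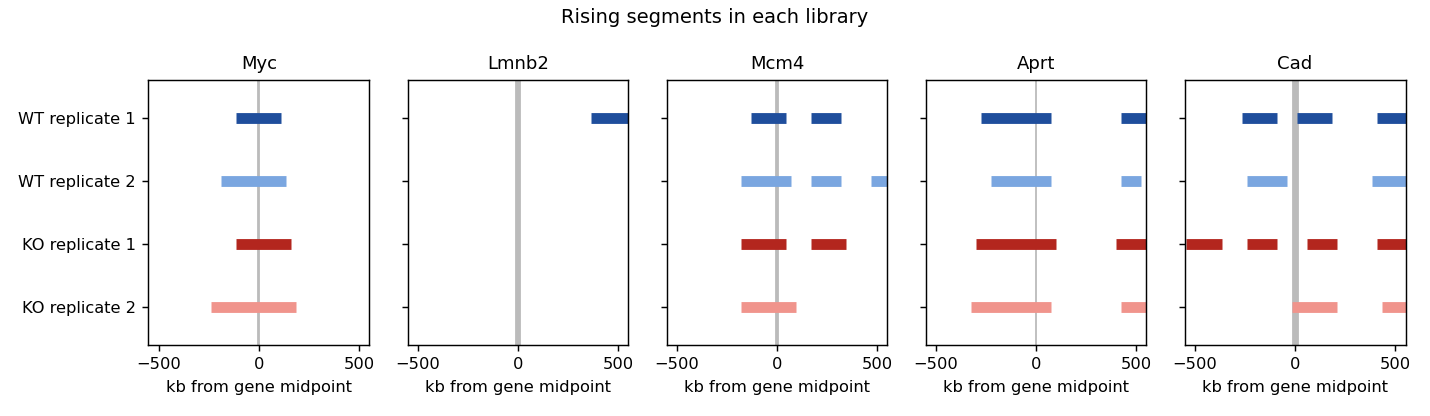
Rising segments of the 5 loci (bars) in each library against the distance from the gene midpoint in kb, with the gene interval in grey; bars are cut where they leave the plotted range. A bar covers Myc, Mcm4 and Aprt in all 4 libraries and Cad in 2, and none covers Lmnb2.

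A rising segment covered Myc, Mcm4 and Aprt in all 4 libraries, that is 3 of 5 members against 36% of all genes, which is a description with no test. The segment at Myc gained 51.8 and 46.0 (WT) against 74.9 and 52.4 points (KO). At Mcm4 the gain was 25.4 and 24.1 (WT) against 38.9 and 27.6 points (KO). At Aprt it was 36.9 and 27.5 (WT) against 49.9 and 31.8 points (KO). In each of these segments KO replicate 1 had the largest gain and WT replicate 2 the smallest. Cad was touched by a segment in WT replicate 1 and KO replicate 2 only.

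The contrast of the series is that of KO with WT. None of the 5 members differed in rise (0 of 5, limma adjusted p under 0.05; over all genes 2 passed, 0.01%). At an unadjusted p under 0.05 there was 1 member, Mcm4, against 14.7% of all genes. The KO values stood above both WT values at 2 of 5 members, Mcm4 and Aprt, against 28.8% of all genes, and below both at 0, against 19.8%. At Mcm4 the KO rise was larger by 11.55 points (SE 4.07, 95% interval 2.32 to 20.8; limma unadjusted p = 0.02, adjusted p = 0.29). At Aprt, where KO replicate 2 (15.4) stood just above WT replicate 1 (15.3), the difference was 6.18 points (95% interval -3.98 to 16.3; limma adjusted p = 0.53). For Myc it was 14.4 points (95% interval -2.32 to 31.1; limma adjusted p = 0.39), with KO replicate 2 between the WT libraries. For Cad it was -1.79 points (95% interval -11.0 to 7.39; limma adjusted p = 0.86) and for Lmnb2 -0.558 points (95% interval -9.56 to 8.45; limma adjusted p = 0.96). Each of these intervals includes differences of several points. Without KO replicate 2, Myc (27.2 points), Mcm4 (12.1 points) and Aprt (10.4 points) passed, but so did 33.2% of all genes. Without KO replicate 1 no member passed (0), against 6.94% of all genes, and the differences were 1.58 points at Myc, 11.0 at Mcm4 and 1.93 at Aprt. With 1 KO library left, the spread in these fits came from the WT pair, and the lone library was assumed to vary like it. Of these 3 differences, that at Mcm4 changed least with the KO library used, but it arose on different flanks. KO replicate 1 stood below WT on the left (-35.7 against -24.7 and -25.5 points) and between the WT values on the right. KO replicate 2 stood near WT on the left and above it on the right (2.78 against -11.6 and -7.88 points). With flanks to 500 kb and all libraries, the difference at Mcm4 was 6.07 points (limma adjusted p = 0.39).

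**Figure D3:**
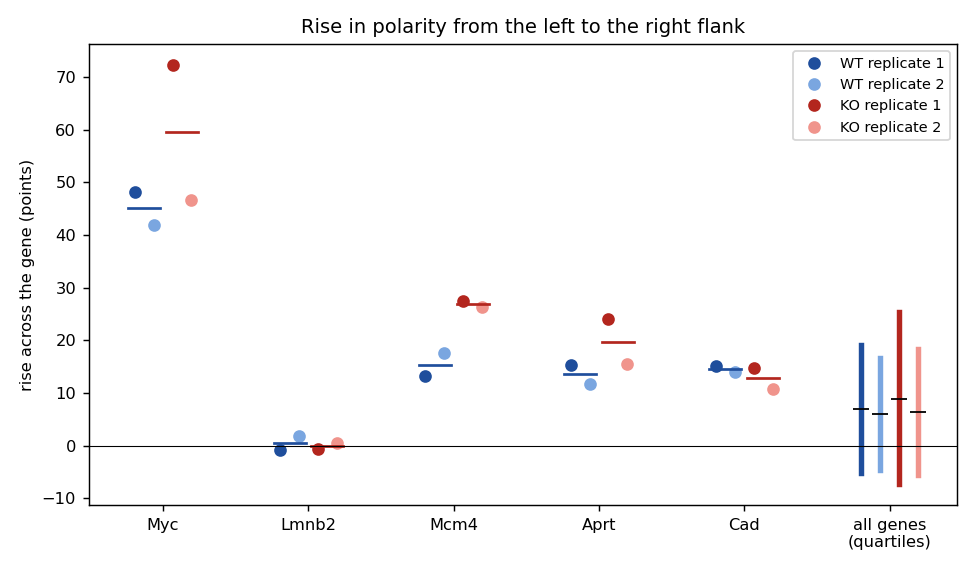
Rise in polarity across each gene in points (vertical axis), one dot per library, with a line at the mean of each genotype; at the right, bars span the quartiles over all genes in each library and ticks mark the medians. The 4 libraries lie above 0 at Myc, Mcm4, Aprt and Cad and around 0 at Lmnb2, and both KO dots stand above both WT dots at Mcm4 and, narrowly, at Aprt, where neither difference passed in limma.

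Single windows gave no call either. Of 50 windows of the loci that do not overlap, 0 passed in limma against 0.0549% of the 23672 tested, and 2 had an unadjusted p under 0.05, against 12.2%. With all overlapping windows tested, 0 of 203 passed, against 0.076%, and 12 had an unadjusted p under 0.05, against 12.1%. The KO values stood above both WT values in 35 of the 203 windows and below both in 34, or 17.2% and 16.7%, against 22.2% and 22.5% of all overlapping windows. The window with the lowest p was left of Cad, at chr5:30650001-30750000, with its midpoint at -355 kb. It had -12.2 and -12.0 (WT) against 2.81 and -1.08 points (KO), KO being higher by 12.9 points (SE 4.50; limma unadjusted p = 0.0098, adjusted p = 0.28). The windows that begin 25 kb on either side showed the same order, but they overlap it. Left of Myc, at -260 kb, polarity was -24.8 and -26.3 (WT) against -37.8 and -35.5 points (KO), KO minus WT being -11.1 points (SE 4.48; limma adjusted p = 0.35). The fits that omit a library covered only the 50 locus windows that do not overlap. Without KO replicate 1, 2 windows passed, both at Mcm4 (5.79% of all windows), and without KO replicate 2, 10 windows passed (20.2% of all windows), with the spread again taken from the WT pair.

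The loci were compared with genes of similar profile. Over 41 windows around the gene midpoint, in the mean of the 4 libraries, the profile of Myc was most like those of Gm29808 (Pearson's r = 0.996) and Tom1 (r = 0.992) among 18975 genes; windows overlap and share libraries, so r is a description. Tom1 lies close to Mcm5 and shares windows with it, and Mcm5 had the largest rise of the licensing genes. Mcm4 was most like Mnx1 (r = 0.965) and Tlr9 (r = 0.961), and Aprt most like Ndufb1 (r = 0.953) and Mocs3 (r = 0.930). Cad was most like 4931422A03Rik (r = 0.923) and Ube3c (r = 0.886). Lmnb2 had the lowest values, with Prkra (r = 0.772) and Ajap1 (r = 0.768). Among the members, Myc and Mcm4 were most alike (r = 0.856), and the other pairs ranged from -0.0184 to 0.394.

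Another 6 genes with origins mapped in mammals, likewise chosen with earlier results known, were measured in the same way: Top1, Dnmt1, Ada, Rps14, Ampd2 and Gnai3. Of the genes given, 5 rose and 1 fell across the gene in limma at an adjusted p under 0.05, against 53.9% and 25.6% of all genes. Their median was 13.4 points, against 7.0 over all genes. The largest were Rps14, a ribosomal protein (17.4 points, adjusted p = 6e-05), Gnai3, a G protein subunit (15.7 points, adjusted p = 0.00028), and Top1, DNA topoisomerase 1 (15.1 points, adjusted p = 0.0015). Ampd2 and Gnai3 lie close together and share windows. The exception, named after its value was seen, was Ada, adenosine deaminase, with -20.4 and -15.6 (WT) against -17.7 and -12.2 points (KO). None of the 6 differed between genotypes (0, against 0.01% of all genes; lowest limma adjusted p = 0.39).

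The genes of the machinery that acts at origins were also measured, 21 in all from the origin recognition complex, the licensing factors, Mcm2 to Mcm7, Mcm10, Cdc45 and the GINS complex. They include the member Mcm4, and Cdt1, which shares windows with Aprt. Of these, 16 rose and 4 fell in limma and 1 did not pass, against 53.9% and 25.6% of all genes that rose and fell. Their median was 21.04 points, against 7.0 over all genes, which is a description of a list chosen with earlier results known. Mcm5 had 49.0 and 36.7 (WT) against 61.9 and 49.4 points (KO), Mcm3 a mean of 40.2 points and Gmnn, the inhibitor of Cdt1, a mean of 35.0 points. All 6 genes of the Mcm2 to Mcm7 ring were among those that rose, the lowest being Mcm2 at 9.71 points (limma adjusted p = 0.0018). Those that fell, named after their values were seen, were Orc6 (-27.3 points), Orc1 (-24.3 points), Orc4 (-16.6 points) and Gins3 (-7.23 points); Orc3 had 2.89 points (limma adjusted p = 0.21). None of the 21 differed between genotypes (0, against 0.01% of all genes; lowest limma adjusted p = 0.29, at Mcm4).

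**Figure D4:**
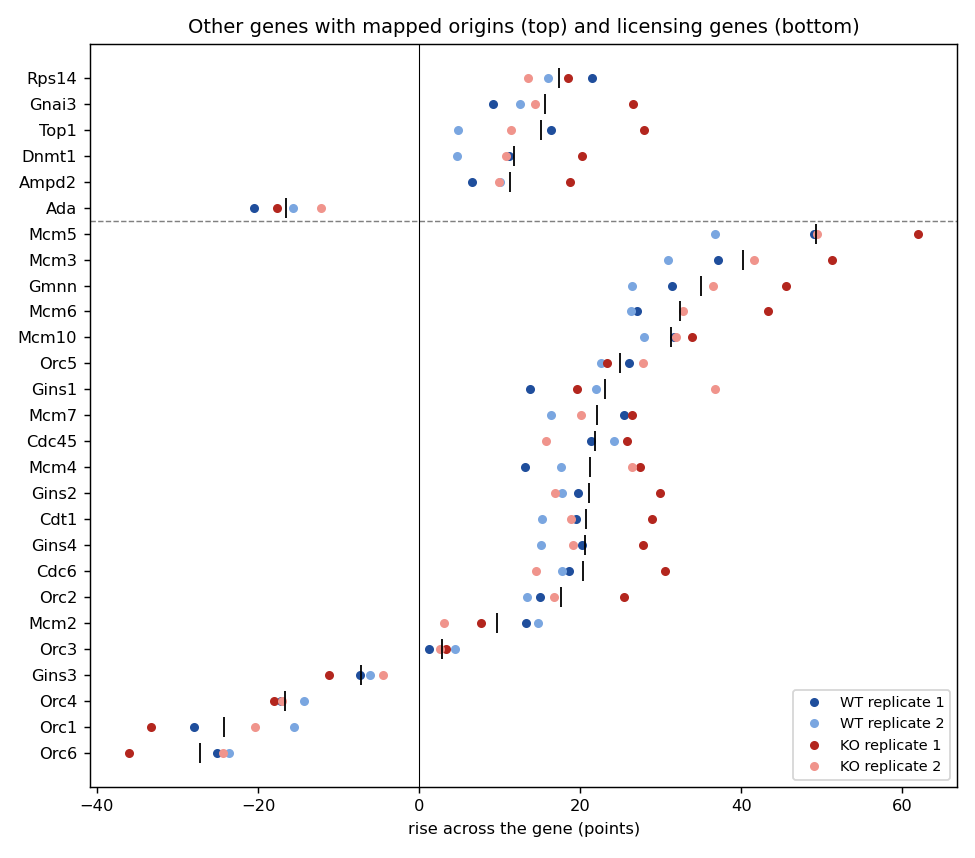
Rise across the gene in points (horizontal axis) for 6 other genes with mapped origins (above the dashed line) and 21 licensing and helicase genes (below it), one dot per library and a black tick at the mean of the 4. The dots of a gene lie on one side of 0 in every case, with Ada, Gins3, Orc4, Orc1 and Orc6 on the negative side.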

How the data were processed

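The series holds 4 TrAEL-seq libraries, grouped by the genotype and replicate number in the labels. The authors deposited a single table of polarity, a signed score in percentage points. Per the file headers, reads were aligned with Bowtie2 to GRCm38 with an rRNA sequence and deduplicated; the submitters' processing notes name Trim Galore 0.6.5 and Bowtie2 2.4.1. The program behind the score, its positive strand and any read minimum are not given in the sources used here. The table holds no counts, so depth is unknown and no counting interval was computed. Between 7641 and 8249 windows per library had no value. For WT replicate 2 the label and the table header give different index sequences; genotype and number match.

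Gene intervals came from RefSeq (GRCm38.p6). Rises were fitted for autosomal protein-coding genes with at least 4 valued windows per flank, and windows were fitted at a spacing of 100 kb, with limma 3.58.1 in R 4.3.3 (lmFit, eBayes, genotype as the term) and Benjamini-Hochberg adjustment over all features. The p-values measure the spread between these libraries. Named were the members, adjacent genes, up to 6 genes per segment, the 2 most similar profiles over 1 Mb away, and 3 per list; other list genes were named after their values were seen. Members and lists were chosen with earlier results of these data known. A further gene of the list of other mapped origins is not reported here, so the counts for that list cover 6 genes. The fits were tested on simulated data. Python 3.11.15, numpy 2.4.6 and pandas 2.3.3 were used.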

Additional observations from a re-analysis of the deposited data

How the results depend on the processing

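Alternatives were flanks to 150 or 500 kb, division by the SD of each library, limma with trend and robust settings, a replicate block, all RefSeq genes, overlapping windows, other settings for segments and omission of each library. Of 50 alternative values for the rise across single members, 46 kept direction and side of the threshold, 2 were weaker (Cad with flanks to 150 kb, 0.135 points; Aprt with flanks to 500 kb, 1.35 points) and 2 reversed (Lmnb2 without WT replicate 2, -0.415 points, and without KO replicate 2, -0.0871 points; the range over omissions was -0.415 to 0.838). The count of members called with a rise was 3 or 4 under every setting, against 46.1% to 57.3% of all genes. A rising segment covered 3 members in all libraries under each of the 4 other segment settings, against 34.3% (running mean of 3 windows), 36.9% (of 9), 46.7% (0.5 SD) and 25.5% (1.5 SD) of all genes.

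Of 50 alternative values for genotype differences, 41 kept direction and side of the threshold, 4 passed and 5 reversed. Sizes changed among the 41. Myc had 1.58 points without KO replicate 1, against 14.4 as reported. Mcm4 had 6.07 points with flanks to 500 kb, against 11.55, and Cad -5.96 points with flanks to 150 kb, against -1.79. Reversed were Lmnb2 with flanks to 500 kb (1.75 points), without WT replicate 2 (0.695) and without KO replicate 1 (0.0391), Aprt with flanks to 500 kb (-0.0613) and Cad without KO replicate 2 (0.269). Over omissions these differences ranged from -1.81 to 0.695 at Lmnb2 and from -3.84 to 0.269 at Cad. The cause was not tested. Each omission leaves 1 library in a genotype, assumed to vary like the other pair. Over omissions the count of members that differed ranged from 0 to 3 and that of windows from 0 to 10. With the replicate block 1 member, Myc, passed (adjusted p = 0.013), as did 10.7% of all genes, and 0 windows of the loci against 2.66% of all windows. Residuals from the genotype means, compared between libraries with equal replicate number, correlated at 0.241, and at 0.0158 after standardising; the labels give the numbers no other meaning, so the libraries share only a number. Over all genes, 2 differed between genotypes as reported, 0 with flanks to 500 kb, 7 with all RefSeq genes, 811 with trend and robust settings, 1421 after standardising, 2143 with the block and 4 to 6615 over omissions. Over all windows, 13 differed as reported, 72 with overlapping windows, 90 after standardising, 302 with trend and robust settings, 630 with the block, 654 with both block and standardising, and 7 to 4790 over omissions. Depth is unknown, and its part in these results was not tested.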
